A study of Mus musculus with 6 samples.

Results

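The 9 genes described here encode sulfatases, enzymes that take sulfate groups off sugars and lipids: Arsj, Arsi, Arsa, Arsb, Arsg, Arsk, Ids, Sulf1 and Sulf2. They were taken by gene symbol from the 32028 genes in the deposited counts, and the family was chosen by the counts of Arsj, which had none in any knockout clone. Those values of Arsj are therefore given as a description, without a test. The libraries came from clonal mouse embryonic fibroblast lines immortalized by transfecting SV40 large T antigen, and every line, controls included, had been given an AAV8 virus carrying Cre under the CMV promoter. The knockout clones (Macf1-/-, n = 3) were grown from single cells of Macf1flox/flox cultures. The heterozygous control clones (Macf1-/+, called het, n = 3) were grown in the same way from Macf1flox/+ cultures. Macf1 encodes a very large protein that links actin filaments to microtubules. Each library is 1 clone, and nothing in the labels says that clones of a genotype came from separate embryos, so p-values measure only the spread between these clones.

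A sulfatase becomes active when a cysteine in its active site is converted to formylglycine in the endoplasmic reticulum, a step carried out by the enzyme encoded by Sumf1. Most members are then tagged with mannose 6-phosphate and carried to the lysosome. There they take part in the stepwise breakdown of glycosaminoglycans, the sulfated sugar chains of proteoglycans, and of the lipid sulfatide. Sulf1 and Sulf2 instead act at the cell surface and in the matrix, where they trim sulfate from intact heparan sulfate chains and so alter the binding of growth factors. Fibroblasts make much of the matrix that carries these chains.

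The site that carries the conversion is shown because it is what the family shares and is independent of the expression values. Each window below holds the coding strand of 33 bases, 5′ to 3′, from the GENCODE M21 transcripts of the GRCm38 genome. The windows were found by translating each coding sequence and searching for cysteine, any residue, proline, then serine, threonine or alanine, then arginine, with conserved residues up to a glycine; the residue allowed before that glycine was widened after Arsk had given no match. Capitals mark the codons for the cysteine that is converted, the proline and the arginine of the motif.
Arsj: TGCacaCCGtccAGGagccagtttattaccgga
Arsb: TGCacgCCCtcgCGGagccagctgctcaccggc
Arsa: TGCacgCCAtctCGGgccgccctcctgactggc
Arsg: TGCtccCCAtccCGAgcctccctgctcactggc
Arsk: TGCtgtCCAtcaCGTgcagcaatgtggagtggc
Ids: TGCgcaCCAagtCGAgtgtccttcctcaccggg
Sulf1: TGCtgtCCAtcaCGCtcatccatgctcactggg
Sulf2: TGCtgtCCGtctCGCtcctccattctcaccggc
The Arsj window lies on the forward strand at chr3:126365131-126365163, in the coding part of exon 1 of 2, and its cysteine is codon 120. Arsb has its window in exon 1 of 8 at chr13:93772051-93772083, also on the forward strand. Of the 33 bases, Arsb shared 24 with Arsj, Arsa and Sulf2 shared 18 each, Arsg 17, Ids 16, Sulf1 14 and Arsk 12. The windows of Arsa (chr15:89475344-89475521) and Arsk (chr13:76091804-76093906) are on the reverse strand and cross the junction of exons 2 and 3. For Arsg the window is at chr11:109517273-109517305 and for Sulf1 at chr1:12796852-12796884, both on the forward strand. Those of Ids (chrX:70363113-70363145) and Sulf2 (chr2:166116993-166117025) are on the reverse strand, in exon 3 of Ids-201 and of Sulf2-201. No window is given for Arsi.

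The 6 libraries held 15661342 to 18209673 estimated counts each. Which Macf1 exons Cre removes is not given in the labels, so the summed Macf1 counts do not check the deletion itself. Macf1 mRNA stood at 308.8, 362.1 and 321.1 CPM (counts relative to the TMM-adjusted library size) in the knockout clones, against 692.5, 695.1 and 578.5 CPM in the het clones. It was lower in the knockout clones (log2 fold change -0.99, adjusted p = 0.00307 by edgeR's quasi-likelihood test), but still present in each of them. Within a genotype, log2 CPM values correlated at 0.977 to 0.994 among knockout clones and at 0.948 to 0.984 among het clones over 12745 genes, and het replicate 1 was the clone least like the other 2 het clones. Knockout replicate 3 was the least like the other knockout clones (0.977 and 0.984, against 0.994 between replicates 1 and 2). Between genotypes the correlations were 0.881 to 0.896. The labelled cell type was not matched by all of its defining markers. Of 12 fibroblast markers, 9 were tested, 6 were lower in the knockout clones and 0 were higher. Over all 12745 tested genes, 14.2% were lower and 13.9% higher at an adjusted p under 0.05. The summed level of the 12 fibroblast markers was 6670 to 9080 CPM in the knockout clones and 10107 to 13618 CPM in the het clones. Most of it came from Vim and from Fn1, which averaged 4264 CPM in knockout and 5766 CPM in het clones. Col1a1 averaged 7.39 CPM in knockout and 1227 CPM in het clones, and Col1a2 0.815 CPM in knockout and 1055 CPM in het clones, while Vim averaged 2863 and 2422 CPM in knockout and het clones. Col5a1 averaged 592.6 CPM in knockout and 437.9 CPM in het clones and did not pass (log2 fold change 0.44, adjusted p = 0.102, edgeR). Lum had no count in any library. Thy1 had no count outside het replicate 1, which had 1, and Dcn had none in the knockout clones and 17, 3 and 12 in the het clones. Epithelial markers summed to at most 0.488 CPM in a knockout clone and 1.12 CPM in a het clone. Of 4 neural markers (Sox2, Tubb3, Nes, Map2), 3 were lower in the knockout clones, with sums of 114.7 to 124.8 CPM in knockout and 102.7 to 233.6 CPM in het clones. Most of each sum was Nes, which did not pass (averages of 102.6 CPM in knockout and 117.4 CPM in het clones). Sox2, Tubb3 and Map2 averaged 0.558, 0.418 and 16.5 CPM in knockout and 8.07, 7.89 and 40.6 CPM in het clones. Of 4 muscle markers, Des was higher in the knockout clones (summed level 2.07 to 4.18 CPM in knockout and 0.657 to 1.46 CPM in het clones), and Myod1, Myog and Myf5 had no count in any clone. The part of these differences in the sulfatase results was not tested, and in bulk libraries fewer cells of a type and less RNA per cell cannot be told apart.

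Arsj encodes an arylsulfatase named for its sequence, whose substrate in the body is not settled. The gene lies at chr3:126363684-126440375 on the forward strand, and its single annotated transcript, Arsj-201, has 2 exons and 3859 bases. The 3 knockout clones had 0, 0 and 0 counts, and the 3 het clones 960, 872 and 831. On the CPM scale the knockout clones were at 0 and the het clones at 57.4, 49.0 and 52.0. The genotypes did not overlap, and the het clones stayed close to each other, with a coefficient of variation of 8.07% around 52.8 CPM. Against a floor of 3 counts over the knockout group, Arsj was at least 915-fold lower in the knockout clones, or at least 574-fold lower without knockout replicate 3, since the floor rises when a library is left out. Of all 12745 tested genes, 54 (0.424%) had no count in any knockout clone, and Arsj stood 6th among them by its het level. Genes without a count in any het clone numbered 10. The authors' deposited table gives a log2 fold change of -12.80 for Arsj-201, a size that depends on how zero counts were handled.

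Arsi, a close relative of Arsj, encodes another arylsulfatase without a settled substrate (chr18:60911780-60918561). It had 0 counts in each knockout clone and 13, 0 and 0 counts in the het clones. That single het library, replicate 1, held it at 0.777 CPM, and the gene was too low to be tested.

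**Figure D1:**
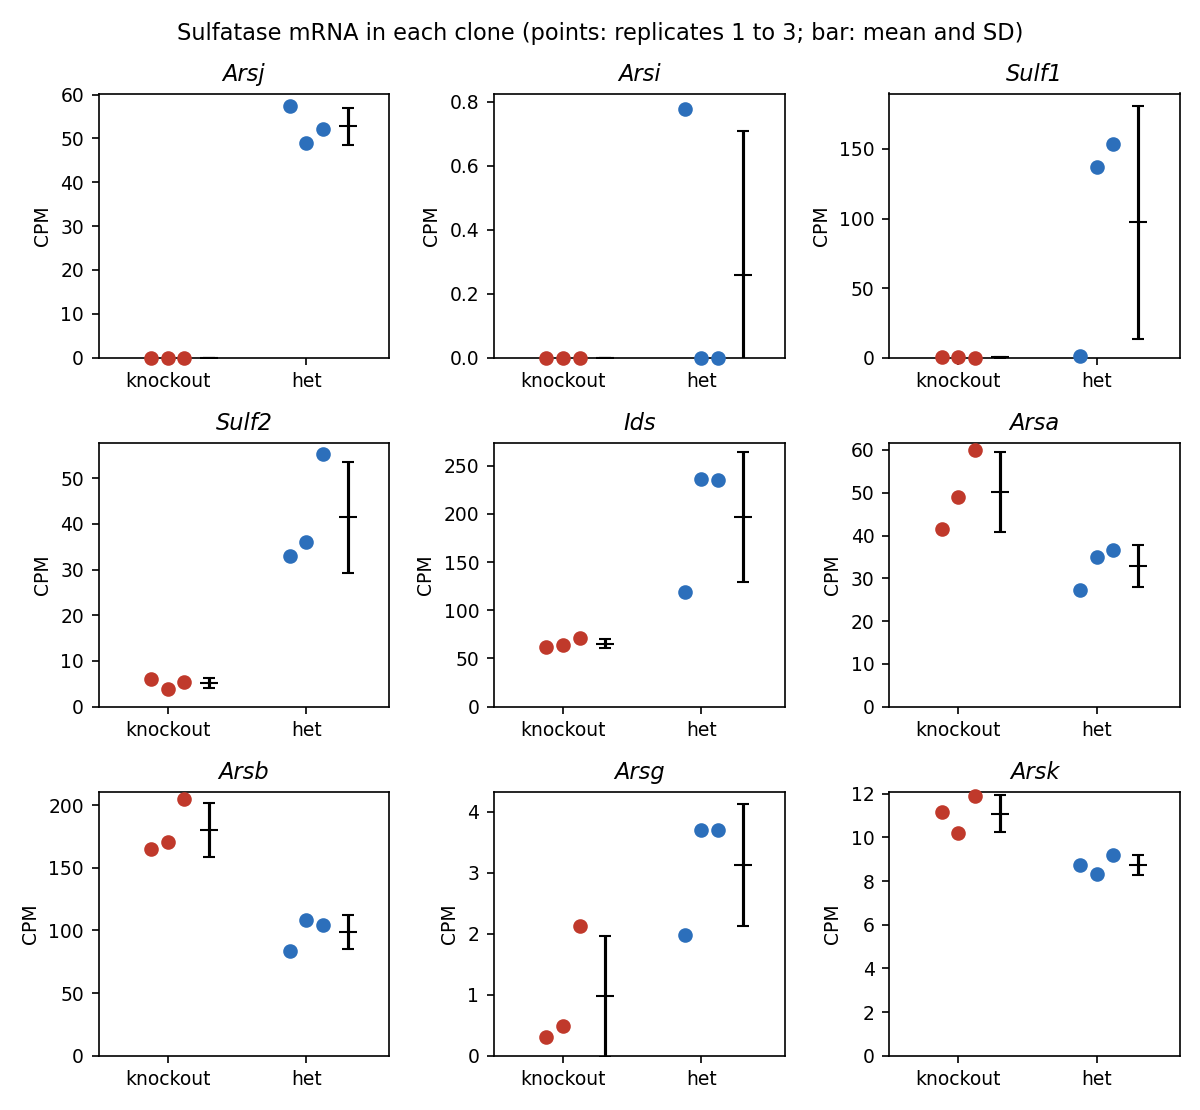
Level of each of the 9 sulfatase genes in CPM (linear axes from 0, scaled per gene) in the 3 knockout clones and the 3 het clones, with points for replicates 1 to 3 and a bar for the mean and SD, which is not drawn below 0. Arsj is at 0 CPM in all knockout clones and at 49.0 to 57.4 CPM in the het clones, while Sulf1 is low in het replicate 1 as well as in the knockout clones.

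Among the other members the surface enzymes fell, lysosomal enzymes moved both ways, and the sizes differed widely. Of the 7 members tested beside Arsj, 2 were higher (Arsa and Arsb), 3 were lower (Sulf1, Sulf2 and Ids) and 2 did not pass (Arsg and Arsk). Over all 12745 genes, 28.1% passed at an adjusted p under 0.05, with 13.9% higher and 14.2% lower. The members called numbered 3 without knockout replicate 2, het replicate 2 or het replicate 3. In 6 of the 7 knockout and het values were fully separate, against 47.5% of all tested genes. The median log2 fold change was -1.59 over these members and -0.00061 over all tested genes. Their number is small, and these members were chosen with the results known.

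Sulf1 encodes an extracellular endosulfatase that removes sulfate from glucosamine units inside heparan sulfate chains (chr1:12692277-12861192, forward strand). It had 2, 3 and 2 counts in the knockout clones and 21, 2439 and 2453 counts in the het clones. Those are 0.122, 0.184 and 0.103 CPM in knockout and 1.26, 136.9 and 153.6 CPM in het clones. The genotypes did not overlap, but het replicate 1 lay much nearer to the knockout clones than to the other 2 het clones. Over pooled counts the level in het clones was 723 times that in knockout clones (exact 95% interval 351 to 1800, counting error only). The log2 fold change was -9.42 (SE 2.16, adjusted p = 0.0273, edgeR). The het clones spread widely, at 97.3 ± 83.6 CPM (SD, n = 3), and the call was lost in several fits. The edgeR adjusted p was 0.0978, 0.0958 and 0.0897 without knockout replicates 1, 2 and 3, and 0.0569 and 0.0554 without het replicates 2 and 3. Without het replicate 1 it was 9.4e-06, and the log2 fold change was -10.00. With limma-voom the adjusted p was 0.469.

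Sulf2 encodes the second endosulfatase, with the same activity on heparan sulfate (chr2:166073089-166155663, reverse strand). It was measured at 6.04, 3.93 and 5.32 CPM in the knockout clones and at 33.1, 35.9 and 55.2 CPM in the het clones. Every knockout value was below every het value, and het replicate 1 was not set apart as it was for Sulf1. The log2 fold change was -3.02 (SE 0.26, adjusted p = 0.00077, edgeR), and the call held in every alternative run. Sulf2 shares 154 exonic bases with the gene Ncoa3 on the other strand, and for the strand setting of the counting the sources used here give nothing.

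Ids encodes the lysosomal iduronate sulfatase, which starts the breakdown of heparan and dermatan sulfate and is missing in Hunter syndrome (chrX:70343069-70365084, reverse strand). The knockout clones had 61.7, 63.8 and 70.7 CPM and the het clones 119.3, 236.1 and 235.1 CPM. Every het clone was above every knockout clone, with het replicate 1 between them. The log2 fold change was -1.59 (SE 0.26, adjusted p = 0.00697, edgeR), and the call held in every alternative. Ids and both surface enzymes therefore share a het replicate 1 that was the lowest of the het clones. That clone was the lowest of its group in 6 of the 8 members whose levels differed among the 3 het clones, which leaves out Arsi, and knockout replicate 3 was the highest of its group in 5 of the 7 whose levels differed among the knockout clones. How often the same holds over all tested genes was not computed. Over 12745 genes, het replicate 1 was also the clone least like the other het clones.

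Arsb encodes the lysosomal sulfatase that removes sulfate from N-acetylgalactosamine in dermatan and chondroitin sulfate, and its loss causes Maroteaux-Lamy syndrome (chr13:93771630-93943016, forward strand). It stood at 165.1, 171.0 and 205.0 CPM in the knockout clones and at 83.6, 108.6 and 104.1 CPM in the het clones. There was no overlap, and the knockout level over pooled counts was 1.84 times the het level. The log2 fold change was 0.87 (SE 0.14, adjusted p = 0.00563, edgeR), and the call held in every alternative. Arsb is overlapped on the other strand by Gm26527 over 1948 exonic bases and by Gm47210 over 463. Both overlaps are taken over the 6037 annotated exonic bases of Arsb, whereas Arsb-201, the transcript in the deposited counts, has 4038. How much of them lies in Arsb-201 was not computed.

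Arsa encodes the lysosomal sulfatase of sulfatide, the lipid that accumulates in metachromatic leukodystrophy (chr15:89472476-89477425, reverse strand). Its levels were 41.6, 49.0 and 60.1 CPM in knockout clones and 27.4, 34.9 and 36.5 CPM in het clones. Knockout clones were all higher, but the nearest clones of the 2 genotypes were close. The log2 fold change was 0.61 (SE 0.17, adjusted p = 0.0396, edgeR). Most leave-one-out fits lost this call, with adjusted p of 0.107 and 0.0815 without knockout replicates 2 and 3, and 0.0744, 0.0891 and 0.0637 without het replicates 1, 2 and 3. Across these fits the log2 fold change stayed between 0.46 and 0.69. The antisense gene C230037L18Rik covers 690 exonic bases of Arsa.

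Arsk and Arsg did not pass. Arsk encodes a lysosomal sulfatase of glucuronate (chr13:76060422-76098660, reverse strand), with 11.2, 10.2 and 11.9 CPM in knockout clones and 8.73, 8.31 and 9.21 CPM in het clones. Its clones did not overlap, yet the log2 fold change of 0.34 (SE 0.16) had an adjusted p of 0.153 with edgeR. With the median log2 fold change of neighbouring genes on the chromosome taken out, which was -0.27 around Arsk, it was 0.61 with an adjusted p of 0.0356. Arsg encodes a lysosomal sulfatase of heparan sulfate (chr11:109473374-109573330, forward strand), at 0.305, 0.491 and 2.12 CPM in knockout and 1.97, 3.71 and 3.69 CPM in het clones. Knockout replicate 3 reached the het range, so the groups overlapped. Its log2 fold change was -1.66 (SE 0.71, adjusted p = 0.124, edgeR), and without knockout replicate 3 it was -2.95 with an adjusted p of 0.0133. Arsg shares 48 exonic bases with Slc16a6 on the other strand.

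**Figure D2:**
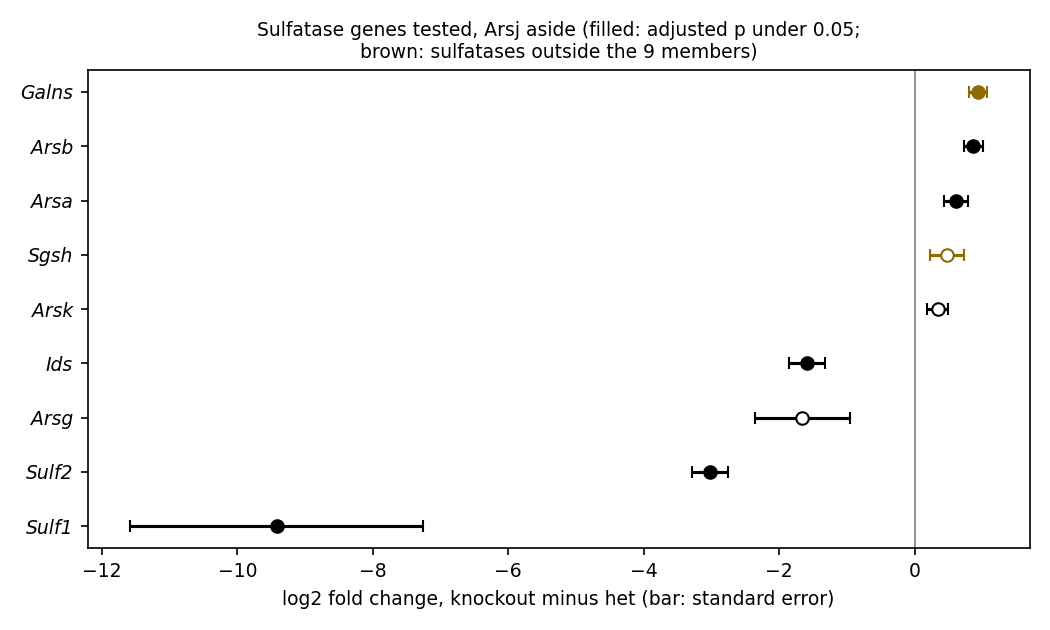
Log2 fold change, knockout minus het, with its standard error, for the 7 tested members other than Arsj (black) and for Galns and Sgsh (brown); filled points have an adjusted p under 0.05. Galns, Arsb and Arsa are higher in knockout clones, whereas Ids, Sulf2 and Sulf1 are lower, and the standard error of Sulf1 (2.16) is the widest shown.

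At the level of single transcripts, 27 transcripts of the 9 genes had a count. Beside Arsj-201, 11 were tested and 4 passed, against 7.92% of all tested transcripts. The number was 1 without knockout replicate 1, knockout replicate 2, het replicate 2 or het replicate 3, and 7 without het replicate 1. Arsb-201, the only Arsb transcript in the deposited counts, and Arsa-202 were higher (log2 fold changes 0.94 and 0.94, adjusted p = 0.0190 and 0.0327, edgeR). Sulf2-201 and Ids-201 were lower (-2.90 and -1.50, adjusted p = 0.0069 and 0.0281, edgeR). For Arsa the transcripts divided its counts: Arsa-202, which codes for protein, held 47.6% of the counts in knockout and 39.6% in het clones, and Arsa-201, annotated as a retained intron, 50.5% in knockout and 59.7% in het clones. Arsa-201 did not pass (log2 fold change 0.43, adjusted p = 0.285, edgeR), and whether the 2 transcripts differ in their change was not tested. Over the pooled het counts, Sulf1 came mainly from Sulf1-202 (48.3%) and Sulf1-203 (43.5%), both coding and both without a count in any knockout clone. Those shares are set by het replicates 2 and 3: het replicate 1 had estimated counts of 14.5 for Sulf1-201, 5.06 for Sulf1-202 and 0 for Sulf1-203. Sulf1-202 and Sulf1-203 were not tested. The only Sulf1 transcript tested was Sulf1-201, with 3.22% of the het counts, and it did not pass (adjusted p = 0.0905, edgeR). The few Sulf1 counts of the knockout clones were assigned to Sulf1-207, a retained intron (71.4%), and to Sulf1-204 (28.6%). Transcripts of a gene share exons, so these levels are estimates. In the authors' deposited table, where 14.0% of transcripts had an adjusted p under 0.05, the log2 fold changes were -2.94 for Sulf2-201, -1.54 for Ids-201, -2.30 for Ids-202, 0.90 for Arsb-201 and 0.91 for Arsa-202, all below that threshold. Arsa-201 (0.40, adjusted p = 0.435) and Arsk-201 (0.37, adjusted p = 0.540) were above it in the authors' deposited table.

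Levels can be compared between genes only per length, here as TPM, an abundance scaled for transcript length and library, computed from the estimated counts and the annotated lengths. The 9 members together had 135.2, 150.4 and 204.1 TPM in the knockout clones and 158.6, 300.4 and 324.6 in the het clones. On that scale the lysosomal members (Arsa, Arsb, Arsg, Arsk and Ids) made up 97.3%, 98.6% and 98.3% of the total in knockout clones and 71.4%, 67.0% and 62.9% in het clones. Sulf1 and Sulf2 together made up 2.66%, 1.39% and 1.69% in knockout and 10.6%, 24.5% and 28.6% in het clones. Arsj contributed 0% in knockout clones and 17.7%, 8.46% and 8.49% in het clones. The shares move together because they add to the whole, and Arsj is counted in them.

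The order of the length-scaled levels differed between the genotypes. In knockout clones Arsb led with 89.0 ± 18.7 TPM (SD, n = 3), followed by Arsa (35.2 ± 9.62), Ids (29.4 ± 6.16), Arsk (6.0 ± 0.90), Sulf2 (2.94 ± 0.86), Arsg (0.666 ± 0.664) and Sulf1 (0.103 ± 0.032). Of these neighbours in the order, only Arsa and Ids overlapped in their clones. In het clones Ids led with 95.2 ± 38.3 TPM (SD, n = 3), followed by Arsb (48.5 ± 8.25), Sulf1 (39.3 ± 33.8), Arsj (27.0 ± 1.39), Arsa (22.4 ± 4.18), Sulf2 (21.7 ± 7.44), Arsk (4.74 ± 0.37), Arsg (2.10 ± 0.83) and Arsi (0.164 ± 0.284). Ids, Arsb and Sulf1 each overlapped with the next in that order, as did Arsa with Sulf2. Arsj did not overlap with Arsa, but their nearest values were close. These were 25.4 TPM for Arsj in het replicate 2 and 25.1 TPM for Arsa in het replicate 3. Arsb therefore held 54.9%, 54.9% and 53.9% of the members' length-scaled mRNA in knockout clones and 24.6%, 17.9% and 16.2% in het clones.

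**Figure D3:**
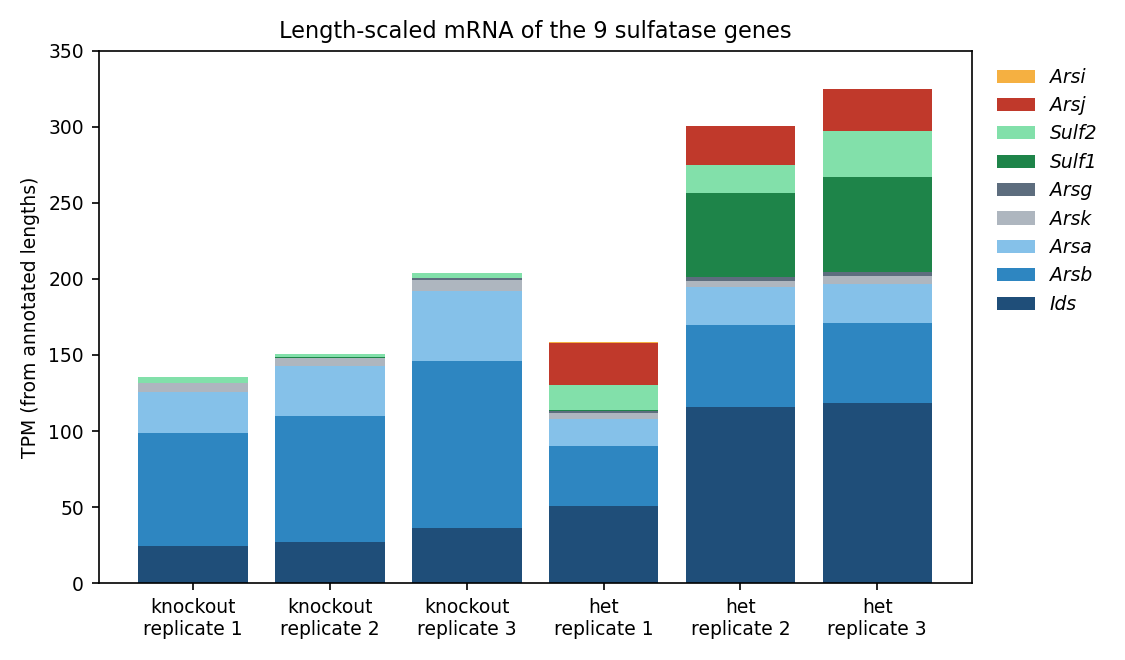
Length-scaled mRNA of the 9 sulfatase genes, in TPM, stacked by gene for each of the 3 knockout clones (left) and the 3 het clones (right). Blue and grey segments are lysosomal enzymes, green Sulf1 and Sulf2, red Arsj, and the knockout bars have no red and almost no dark green. Dark green is Sulf1, which is also almost absent from the bar of het replicate 1 (0.570 TPM).

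Outside the 9 members, Galns and Sgsh were also tested. Galns, which removes sulfate from galactose and N-acetylgalactosamine in keratan and chondroitin sulfate, had 47.4, 51.5 and 60.3 CPM in knockout and 28.7, 24.5 and 30.2 CPM in het clones (log2 fold change 0.93, adjusted p = 0.0041, edgeR). The call of Galns held in every alternative, and its clones did not overlap between genotypes. Sgsh, which takes sulfate off the nitrogen of glucosamine, averaged 29.4 ± 4.12 CPM in knockout and 20.99 ± 6.90 CPM in het clones (SD, n = 3 each) and did not pass (adjusted p = 0.192, edgeR). Sts was not analysed here.

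Among genes that activate sulfatases or carry them to the lysosome, 12 were tested with edgeR, and 6 were higher and 0 lower. That is 50%, against 28.1% of all tested genes (13.9% higher and 14.2% lower), and the median log2 fold change was 0.36. DESeq2 called 6 higher and 1 lower, P4hb, a protein disulfide isomerase (672.8 CPM in knockout and 875.5 CPM in het clones; adjusted p = 0.0397 with DESeq2 and 0.118 with edgeR). Igf2r, the large receptor for mannose 6-phosphate, averaged 420.3 ± 47.7 CPM in knockout and 150.5 ± 31.9 CPM in het clones (SD, n = 3 each; log2 fold change 1.48, adjusted p = 0.0022, edgeR). Gnptg, a subunit of the enzyme that starts the mannose 6-phosphate tag, averaged 25.3 ± 0.55 CPM in knockout and 15.5 ± 0.93 CPM in het clones (log2 fold change 0.71, adjusted p = 0.0057, edgeR). Sumf1, the formylglycine-generating enzyme, averaged 74.1 ± 0.77 CPM in knockout and 55.8 ± 3.74 CPM in het clones (log2 fold change 0.41, adjusted p = 0.0173, edgeR). Erp44, which retains proteins such as the Sumf1 product in the secretory pathway, averaged 71.4 ± 5.13 CPM in knockout and 51.6 ± 2.63 CPM in het clones (log2 fold change 0.47, adjusted p = 0.0142, edgeR). Nagpa, which uncovers the tag, and Sumf2, a relative of Sumf1, were the others that were higher (log2 fold changes 0.57 and 0.35). The second receptor gene, M6pr, averaged 165.7 CPM in knockout and 184.2 CPM in het clones and did not pass, nor did Gnptab, the partner of Gnptg (46.1 CPM in knockout and 49.4 CPM in het clones). Without knockout replicate 1 or 2 the number called was 2, and without het replicate 2 it was 3. Sumf1 lost its call without knockout replicates 1 and 2 and het replicate 2 (adjusted p = 0.0588, 0.0766 and 0.0599, edgeR), and Erp44 without knockout replicates 1 and 2 (0.0559 and 0.0545).

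The genes that build and sulfate heparan sulfate, the substrate of Sulf1 and Sulf2, were called in both directions. Of 20 listed, 13 were tested, 3 were higher and 1 lower (30.8%, near the 28.1% of all tested genes), and the median log2 fold change was 0.08. Ext1 and Ext2, which together polymerize the chain, averaged 270.1 ± 40.8 and 183.7 ± 15.3 CPM in knockout clones and 148.4 ± 24.3 and 134.1 ± 9.13 CPM in het clones (SD, n = 3 each; log2 fold changes 0.86 and 0.45, adjusted p = 0.0098 and 0.0182, edgeR). Hs2st1, which sulfates the uronic acid, averaged 133.0 ± 14.7 CPM in knockout and 81.1 ± 8.27 CPM in het clones (log2 fold change 0.71, adjusted p = 0.0074, edgeR). With the local chromosome median of 0.34 taken out, its log2 fold change was 0.37 and its adjusted p 0.0684. Hs6st1, which adds the kind of sulfate that Sulf1 and Sulf2 remove, averaged 22.8 ± 1.59 CPM in knockout and 35.9 ± 2.27 CPM in het clones (log2 fold change -0.66, adjusted p = 0.0064, edgeR). Hs6st2, of the same activity, averaged 31.1 ± 4.66 CPM in knockout and 54.4 ± 38.0 CPM in het clones and did not pass (adjusted p = 0.347, edgeR). Ext2 lost its call without knockout replicate 2 and without het replicate 2 (adjusted p = 0.0683 and 0.0634, edgeR).

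The chondroitin and dermatan sulfate genes, whose products Arsb and Ids break down, had 16 members listed and 13 tested. Of these, 2 were higher and 5 lower (53.8%, against 28.1% of all tested genes), and the median log2 fold change was -0.32. Without knockout replicate 1, the number called was 4. Chst3, a chondroitin sulfotransferase, averaged 1.22 ± 0.48 CPM in knockout and 11.7 ± 1.39 CPM in het clones (SD, n = 3 each; log2 fold change -3.25, adjusted p = 0.0014, edgeR). Chst7, a second enzyme of that activity, had no count in the knockout clones and averaged 4.89 ± 3.17 CPM in the het group, so that against 3 counts over the knockout group it was at least 85.2-fold lower in knockout clones (adjusted p = 0.0115, edgeR). The bound was 53.5-fold without knockout replicate 3 and lay between 53.5-fold and 117-fold with any 1 clone left out. Chsy1, a chondroitin synthase, averaged 18.9 ± 2.32 CPM in knockout and 36.7 ± 0.59 CPM in het clones (log2 fold change -0.96, adjusted p = 0.0027, edgeR). Csgalnact2, which starts the chain, went the other way, with 82.2 ± 11.5 CPM in knockout and 41.7 ± 4.91 CPM in het clones (log2 fold change 0.98, adjusted p = 0.0041, edgeR). Dse, an epimerase that makes dermatan sulfate, and Chpf2, a chondroitin polymerizing factor, were the other lower genes (-1.34 and -0.49), and Chst15, which adds a further sulfate to N-acetylgalactosamine, was the other higher one (3.15). Chst15 had 82, 69 and 106 counts in the knockout clones and only 13, 0 and 14 in the het clones. The median is the same gene's value whether Chst7 is set at its fitted value or at its bound.

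Lysosomal enzymes that work beside the sulfatases, 14 tested in all, included 3 that were higher and 2 lower. That is 35.7%, against 28.1% of all tested genes, and the median log2 fold change was 0.17. Glb1, the lysosomal beta-galactosidase, averaged 35.3 ± 2.45 CPM in knockout and 23.1 ± 0.50 CPM in het clones (SD, n = 3 each; log2 fold change 0.61, adjusted p = 0.0066, edgeR). Neu1, a sialidase held in a complex with Glb1, averaged 50.4 ± 3.38 CPM in knockout and 32.6 ± 3.65 CPM in het clones (log2 fold change 0.63, adjusted p = 0.0099, edgeR). Galc, the galactosidase that acts after Arsa in sulfatide breakdown, averaged 67.5 ± 3.95 CPM in knockout and 47.8 ± 5.12 CPM in het clones (log2 fold change 0.50, adjusted p = 0.0182, edgeR). Galc lost its call without knockout replicates 1 and 2 and without het replicate 3 (adjusted p = 0.0696, 0.0780 and 0.0612, edgeR), and with the local chromosome median of 0.38 taken out its log2 fold change was 0.11 (adjusted p = 0.486). Hpse, the heparanase that cuts heparan sulfate chains, averaged 0.271 ± 0.264 CPM in knockout and 2.69 ± 0.15 CPM in het clones (log2 fold change -3.23, adjusted p = 0.0107, edgeR; 0.0632 without knockout replicate 2). Hyal1, a hyaluronidase, was the other lower gene (-2.66). Without knockout replicates 1 and 2 the list had 3 and 2 calls.

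Among genes that supply sulfate or its activated form, 9 were tested and 1 was higher and 1 lower. That is 22.2%, against 28.1% of all tested genes, and the median log2 fold change was -0.00071. Slc26a1, a sulfate transporter, averaged 0.243 ± 0.103 CPM in knockout and 0.896 ± 0.148 CPM in het clones (SD, n = 3 each; log2 fold change -1.83, adjusted p = 0.0213, edgeR). Impad1, a Golgi phosphatase that removes the by-product of sulfation, averaged 199.6 ± 11.6 CPM in knockout and 151.4 ± 12.8 CPM in het clones (log2 fold change 0.40, adjusted p = 0.0268, edgeR). Slc26a1 lost its call without knockout replicates 1 and 2 (adjusted p = 0.0874 and 0.102, edgeR) and without het replicates 2 and 3 (0.0562 and 0.0713). Impad1 lost its call without knockout replicates 1 and 2 (adjusted p = 0.0920 and 0.0982, edgeR) and without het replicates 1 and 3 (0.0531 and 0.0829). The list then had 0 calls without knockout replicate 1, knockout replicate 2 or het replicate 3, and 1 call without het replicate 1 or 2. The transporter for activated sulfate, Slc35b2, averaged 51.1 CPM in both knockout and het clones.

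**Figure D4:**
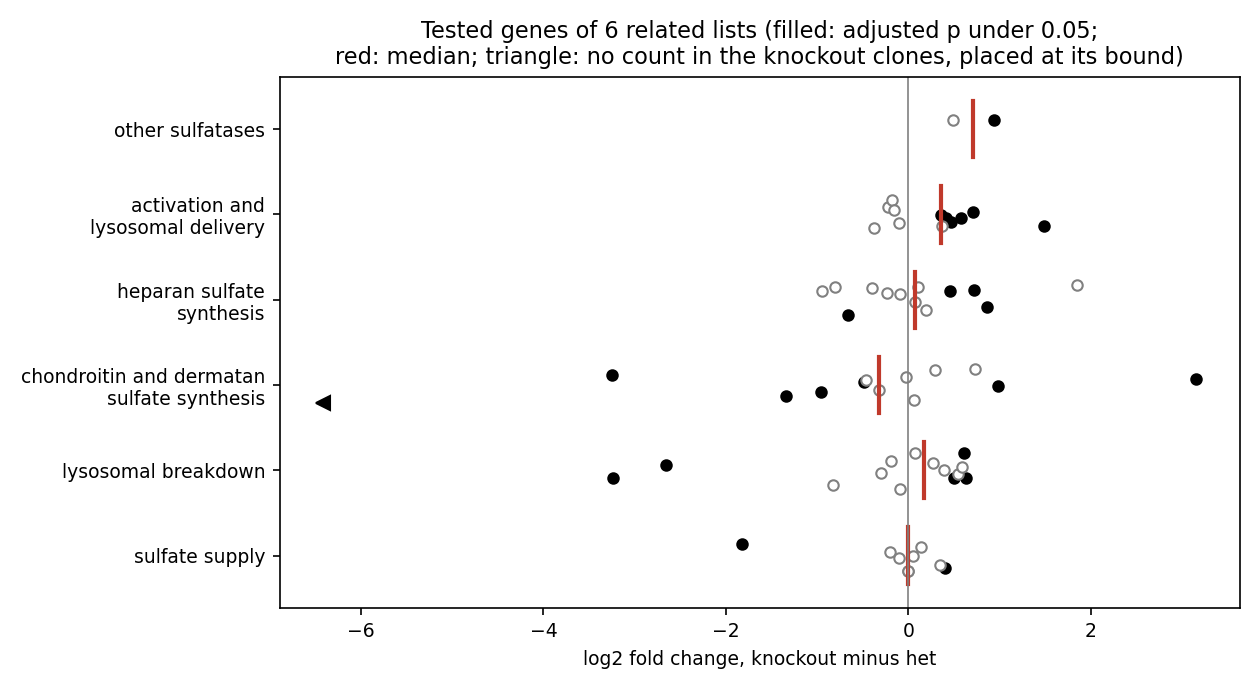
Log2 fold change, knockout minus het, of each tested gene in 6 lists related to sulfatases, with the median of each list in red; filled symbols passed at an adjusted p under 0.05. The triangle is Chst7, which had no count in knockout clones and is drawn at its bound of 85.2-fold, and the genes of the activation and delivery list called by edgeR all lie above 0.

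The tested genes around Arsj all had counts in the knockout clones. Within 1 Mb, 32 genes are annotated and 3 were tested, of which 0 passed with edgeR and 2 (Camk2d and Ank2) had an unadjusted p under 0.05. The share of all tested genes with an unadjusted p under 0.05 was not computed, and 28.1% passed the adjusted threshold. Ndst4, a heparan sulfate sulfotransferase whose body lies upstream, averaged 0.892 ± 0.178 CPM in knockout and 1.19 ± 0.305 CPM in het clones (SD, n = 3 each; log2 fold change -0.40, adjusted p = 0.439, edgeR). Camk2d, a calcium-dependent kinase gene downstream, averaged 102.6 ± 2.47 CPM in knockout and 123.0 ± 10.3 CPM in het clones (log2 fold change -0.26, adjusted p = 0.0784, edgeR). Ank2, an ankyrin gene further downstream, averaged 39.5 ± 10.7 CPM in knockout and 12.5 ± 11.3 CPM in het clones (log2 fold change 1.66, adjusted p = 0.104, edgeR), and without het replicate 1 its log2 fold change was 2.72 (adjusted p = 0.0019). DESeq2 called both of them, Camk2d (adjusted p = 0.0381) and Ank2 (0.0117), and Ank2 also passed with limma-voom (0.0380). Arsj shares 212 exonic bases with the antisense gene Gm17225. Around all 9 members, 108 neighbours were tested and 27 passed (25%), 9 higher and 18 lower, close to the 28.1% of all genes. Their number was 12 and 10 without knockout replicates 1 and 2, and 14 and 13 without het replicates 2 and 3.

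**Figure D5:**
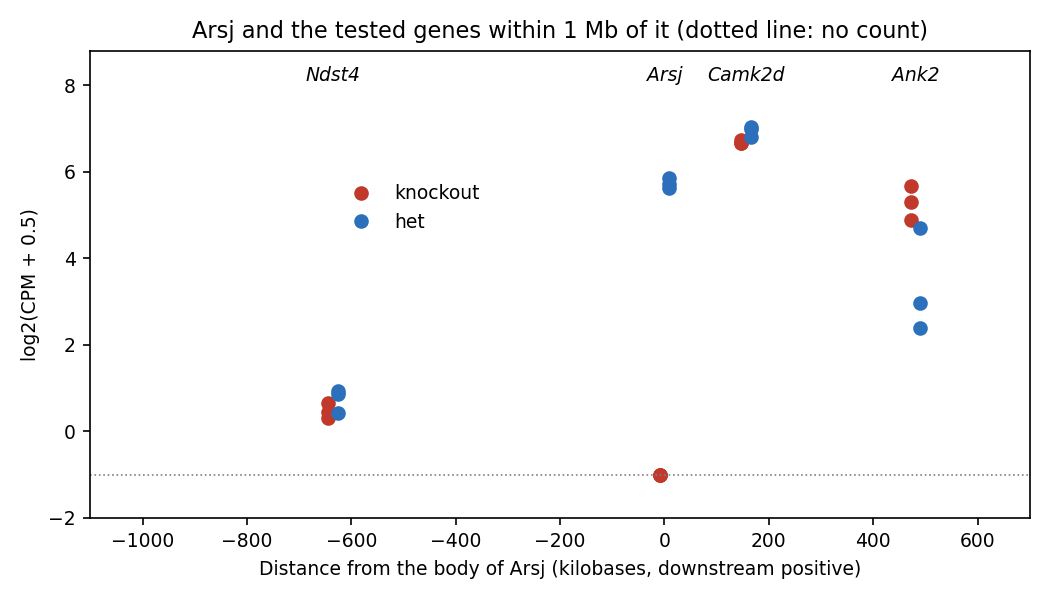
Level of Arsj and of the tested genes within 1 Mb of it, as log2(CPM + 0.5), against distance from the gene body in kilobases, with 1 point for each knockout clone (left of each pair) and each het clone (right). The knockout points of Arsj lie on the dotted line of no count, while all knockout points of Ndst4, Camk2d and Ank2 lie above it; those of Ank2 (29.3, 38.8 and 50.6 CPM) are above its het points (25.5, 4.72 and 7.26 CPM).

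The genes whose pattern over the 6 clones was most like that of Arsj were ranked by Pearson correlation of log2(CPM + 0.5), a description in which knockout and het clones form 2 clusters. The first 5 were Pde8a (0.9999), Slco2a1 (0.9996), Gm10184 (0.9994), Smim17 (0.9993) and Hoxd10 (0.9993), and 152 tested genes were above 0.99. Pde8a, a cyclic AMP phosphodiesterase, averaged 16.6 CPM in knockout and 98.6 CPM in het clones. Slco2a1, a prostaglandin transporter, averaged 2.15 CPM in knockout and 179.3 CPM in het clones. Hoxd10, a homeobox transcription factor, had no count in knockout clones and 30.1, 20.8 and 22.2 CPM in het clones. Gm10184, a predicted gene whose reads may be shared with copies, had no count in knockout clones and averaged 309.9 CPM in het clones. Smim17 rested on few counts, with 2, 2 and 2 in the knockout clones and 11, 11 and 10 in the het clones.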

How the data were processed

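Poly(A) RNA of 3 knockout and 3 het clones was sequenced with a stranded kit, per the labels' protocols. The authors deposited an estimated count for each of 96626 transcripts and FPKM values for 24799. Their deposited comparison gives log2 fold changes, log2 mean abundance, p-values and adjusted p-values by transcript, per the file headers. Trimmomatic 0.36, kallisto 0.42.5 and edgeR appear, with build GRCm38.p4, in what the submitters' processing notes name.

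Transcripts were assigned to genes with GENCODE M21 (95213 matched, 260 by the authors' table, 1153 left out). Estimated counts were summed per gene and rounded to whole numbers. Genes passing filterByExpr (count minimum 10, total minimum 15) were scaled with TMM and tested two-sided with edgeR 4.0.16 (R 4.3.3, robust quasi-likelihood F test), with Benjamini-Hochberg adjustment over 12745 genes. The procedure was tested on simulated data. Depth was 15661342 to 18209673 estimated counts per library, so a floor of 3 counts is 0.155 to 0.188 CPM. Intervals and floors cover counting error only. Transcripts were tested in the same way, and the authors' fold changes run knockout minus het.

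Alternatives were RLE scaling, library totals, DESeq2 1.42.0, limma-voom (limma 3.58.1), no filter, at least 1 CPM in 3 libraries, limma on log2(FPKM + 1) and log2(FPKM + 0.1), each clone left out, and the local chromosome median (20 tested genes on each side) taken out. That last alternative was chosen after seeing the data. The members, lists and tests were chosen with earlier results of these data known. Named were all members, Macf1, up to 4 passing genes of each list with the smallest adjusted p, the tested genes within 1 Mb of Arsj and the 5 genes most like Arsj. Other list genes were named after their values were seen, and 1 listed gene is not reported here.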

Additional observations from a re-analysis of the deposited data

How the results depend on the processing

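All 450 values of 31 of the named genes under 15 alternatives kept their direction. Of these values, 405 also kept their side of the threshold, 37 lost the call and 8 gained it. Genes named here outside those 31 are not covered. The members called numbered 5 of 7 tested. They were 4 with library totals, limma-voom, no filter and log2(FPKM + 1), 3 with log2(FPKM + 0.1), and 3 to 4 with a clone left out. On the 2 FPKM scales only 5 of these members were tested. Chondroitin and dermatan sulfate genes called numbered 7 and were 4 with log2(FPKM + 1) and with log2(FPKM + 0.1), and 4 to 7 with a clone left out. Sulfate supply had 2 calls, and 1 with DESeq2, with at least 1 CPM in 3 libraries, and with each FPKM scale, and 0 to 2 with a clone left out. Member transcripts called numbered 4, were 7 with DESeq2 and 1 to 7 with a clone left out. With a clone left out, calls were 1565 to 3825 over all genes (3585 with all clones; 1894 and 1565 without knockout replicates 1 and 2, and 2227 without het replicate 2), 2 to 5 in activation and delivery, 2 to 6 in lysosomal breakdown, 3 to 6 in heparan sulfate synthesis and 10 to 28 among neighbours. Without knockout replicate 3 and without het replicate 1, the calls over all genes were 3602 and 3825. The cause of these shifts was not tested. Beyond the leave-one-out fits, Arsa lost its call with library totals (adjusted p = 0.0730), log2(FPKM + 0.1) (0.0504) and the local median taken out (0.0925), and Sulf1 with no filter (0.0836) and limma-voom (0.469). No paired analysis was possible because the clones of the genotypes share no replicate numbers in the labels. Depth limits Arsg, Sulf1 in knockout clones, Chst15 in het clones, Slc26a1, Smim17 and Arsi, which rest on few counts.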

Other observations

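Sulf1 was low in het replicate 1 as well as in the knockout clones, and the tested genes most like it over the 6 clones, ranked after its values were seen, were Sp140, Sh3bp4, Tgfbr2, Fam213a and Eomes (Pearson correlation of log2(CPM + 0.5) 0.9983 to 0.9970, with 20 genes above 0.99). Eomes, a T-box transcription factor, had 0.061, 0.246 and 0.361 CPM in the knockout clones and 1.14, 32.6 and 38.0 CPM in the het clones. Tgfbr2, a receptor for TGF-beta, had 86.5, 94.2 and 85.5 CPM in the knockout clones and 102.5, 277.9 and 287.3 CPM in the het clones. For both, het replicate 1 lay nearer to the knockout clones than to the other het clones. These are values of a pattern chosen for its likeness and carry no test.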
